A study of Homo sapiens with 19 samples.

Results

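The genes described here are 35 genes of cholesterol synthesis and transport. They were chosen by symbol, with earlier results of these data known. All 35 were found in both deposited tables, which hold 34825 gene symbols each. By role, 7 act in the early mevalonate steps, 10 from squalene synthesis to cholesterol, and 4 in the control of SREBP. A further 5 act in uptake and intracellular transport, 4 in efflux and 3 in esterification, and 2 are LXR receptors. The libraries were made from mRNA of HepG2, an established human liver cancer cell line with hepatocyte features. In the first experiment, each transfection used 50 nM siRNA and lasted 72 h, and it compared a control siRNA named NTG with siINO80#1 and with siINO80#2, which target INO80, in 3 libraries per group lettered A, B and C. In the second experiment, EPZ-6438 at 1 uM, which blocks the histone methyltransferase EZH2, or its vehicle DMSO was given from 3 days ahead of transfection with NTG or with siMCRS1, which targets MCRS1, again at 50 nM and for 72 h. That experiment has 2 libraries of DMSO with NTG, 3 of DMSO with siMCRS1, 3 of EPZ-6438 with NTG and 2 of EPZ-6438 with siMCRS1. INO80 is the ATPase of the INO80 chromatin-remodeling complex (INO80-C), and MCRS1 is an accessory subunit of it. All groups were transfected with an siRNA, the labels name 1 control siRNA, and they name 1 siRNA against MCRS1 where INO80 has 2. The labels state no question for these libraries. Nothing states whether replicate libraries came from separate cultures, so the p-values below measure only the spread between these libraries.

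Cholesterol is built from acetyl-CoA through mevalonate, isoprenoid pyrophosphates, squalene and lanosterol. Most genes of this route are activated by the transcription factor SREBP-2, the product of SREBF2, which is escorted by SCAP and held in the endoplasmic reticulum by the INSIG proteins when sterols are plentiful. The LXR receptors, which bind oxysterols, act on the opposite arm and induce efflux transporters of the ABC family. The liver is a main site of cholesterol synthesis, and hepatocytes also esterify cholesterol for storage or lipoprotein export and secrete it into bile.

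Recovered reads per library numbered 17093574 to 25369547 (INO80 experiment) and 26038505 to 47397233 (drug experiment). As a floor for counting error alone, 3 reads corresponded to 2.30 to 3.58 and to 2.13 to 4.30 normalized counts. INO80 had 1264 ± 82.2 normalized counts (SD, n = 3) with NTG, 608 ± 31.3 normalized counts (SD, n = 3) with siINO80#1 and 459.6 ± 21.7 normalized counts (SD, n = 3) with siINO80#2. MCRS1 had 1429.8 ± 208 normalized counts (SD, n = 2) with NTG and 114 ± 28.5 normalized counts (SD, n = 3) with siMCRS1 in DMSO, and 1363 ± 166 normalized counts (SD, n = 3) with NTG and 108 ± 24.8 normalized counts (SD, n = 2) with siMCRS1 in EPZ-6438. In both cases each targeted library was below every NTG library. The 8 hepatocyte markers were present in every library, with summed levels of 316501 to 430323 normalized counts in NTG, 374016 to 479420 in siINO80#1, 308782 to 359204 in siINO80#2, 412002 to 566321 in DMSO NTG, 462683 to 715062 in DMSO siMCRS1, 438925 to 538154 in EPZ-6438 NTG and 579609 to 669965 in EPZ-6438 siMCRS1. Against NTG, 1 of these markers rose and 1 fell with siINO80#1, 1 rose and 2 fell with siINO80#2, 0 rose and 2 fell with siMCRS1 in DMSO, and 1 rose and 3 fell with it in EPZ-6438. Of all genes tested, 20.7%, 26.6%, 23.1% and 26.8% rose and 20.8%, 28.4%, 24.6% and 26.9% fell in these comparisons in this order. The markers that rose were APOA2 with either INO80 siRNA and ALB with siMCRS1 in EPZ-6438. None of these rises was kept under both rescalings described below. The median log2 fold change of the 8 markers was 0.19, -0.11, 0.16 and 0.01 in the same order. HNF4A, a hepatocyte transcription factor, fell in each siRNA comparison, with log2 fold changes of -0.45, -1.02, -0.55 and -0.55 (adjusted p 8.2e-04, 1.9e-06, 0.016 and 0.015 from limma) in this order. Of 9 markers of other cell types, PTPRC, CDH5, DCN, COL1A2 and KRT7 stayed at or below 35.9 normalized counts in the INO80 experiment and 67.3 in the drug experiment, and none was at 0 in all libraries of an experiment. The summed level of the 9 was 37804 to 42423 in NTG, 39788 to 45791 in siINO80#1, 50183 to 56726 in siINO80#2, 53422 to 70828 in DMSO NTG, 38181 to 60448 in DMSO siMCRS1, 49184 to 65737 in EPZ-6438 NTG and 44063 to 57823 in EPZ-6438 siMCRS1, mostly from LYZ. Of the 7 of them tested, 1, 1, 1 and 2 fell and 0, 2, 0 and 0 rose in the siRNA comparisons in this order. ACTA2, a smooth muscle actin, fell in the same 4 comparisons, with log2 fold changes of -1.71, -1.16, -1.87 and -2.23 (adjusted p 0.0043, 0.023, 0.0011 and 2.8e-04 from limma). The part of these shifts in the results below was not tested. In bulk libraries, fewer cells of a type and less RNA per cell cannot be told apart.

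Only genes whose mean reached 10 normalized counts were tested, with limma on log2(value + 1), and a Benjamini-Hochberg adjusted p under 0.05 over all genes was the threshold. ABCG1, an efflux transporter, was below that mean in both experiments, at 1.10 to 11.5 normalized counts over all libraries. INSIG1 was below it in the drug experiment, which left 34 members tested in the first experiment and 33 in the second. With siINO80#1, 15 of 34 members fell and 1 rose, where 20.8% and 20.7% of all 14034 genes tested did. With siINO80#2, 23 members fell and 1 rose, where 28.4% and 26.6% of all genes did. With siMCRS1 in DMSO, 16 of 33 members fell and 3 rose, where 24.6% and 23.1% of 14312 genes did. In EPZ-6438, siMCRS1 lowered 16 members and raised 5, where 26.9% and 26.8% of all genes fell and rose. The median log2 fold change of the members was -0.26, -0.46, -0.34 and -0.41 in these comparisons in the same order, against 0.00, 0.00, 0.00 and 0.01 over all genes. Scaling bears on the few higher values. Rescaling every library to the same total moved the median log2 fold change of all genes to -0.08 with siINO80#1, -0.11 with siINO80#2 and -0.23 with siMCRS1 in either treatment, while on the deposited scale that median lies at 0.00 to 0.01, so the values given here are relative to the median gene. That rescaling also took the higher share of all calls from 49.9% to 39.8% with siINO80#1, from 48.3% to 38.7% with siINO80#2, from 48.4% to 27.1% with siMCRS1 in DMSO and from 49.9% to 30.2% in EPZ-6438. All 15, 23, 16 and 16 lower calls of members were kept under this rescaling and under quantile normalization. Equal totals shifted values downward, so that rescaling could hardly remove a lower call and works against higher ones. Keeping the lower calls under it is therefore no separate support for them. Quantile normalization left the median of all genes at 0.00, 0.01, 0.01 and 0.05. Of the higher calls, NPC1 with siMCRS1 in EPZ-6438 was kept under both, NPC1 with siINO80#2 under quantile normalization alone, and the others under neither.

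**Figure D1:**
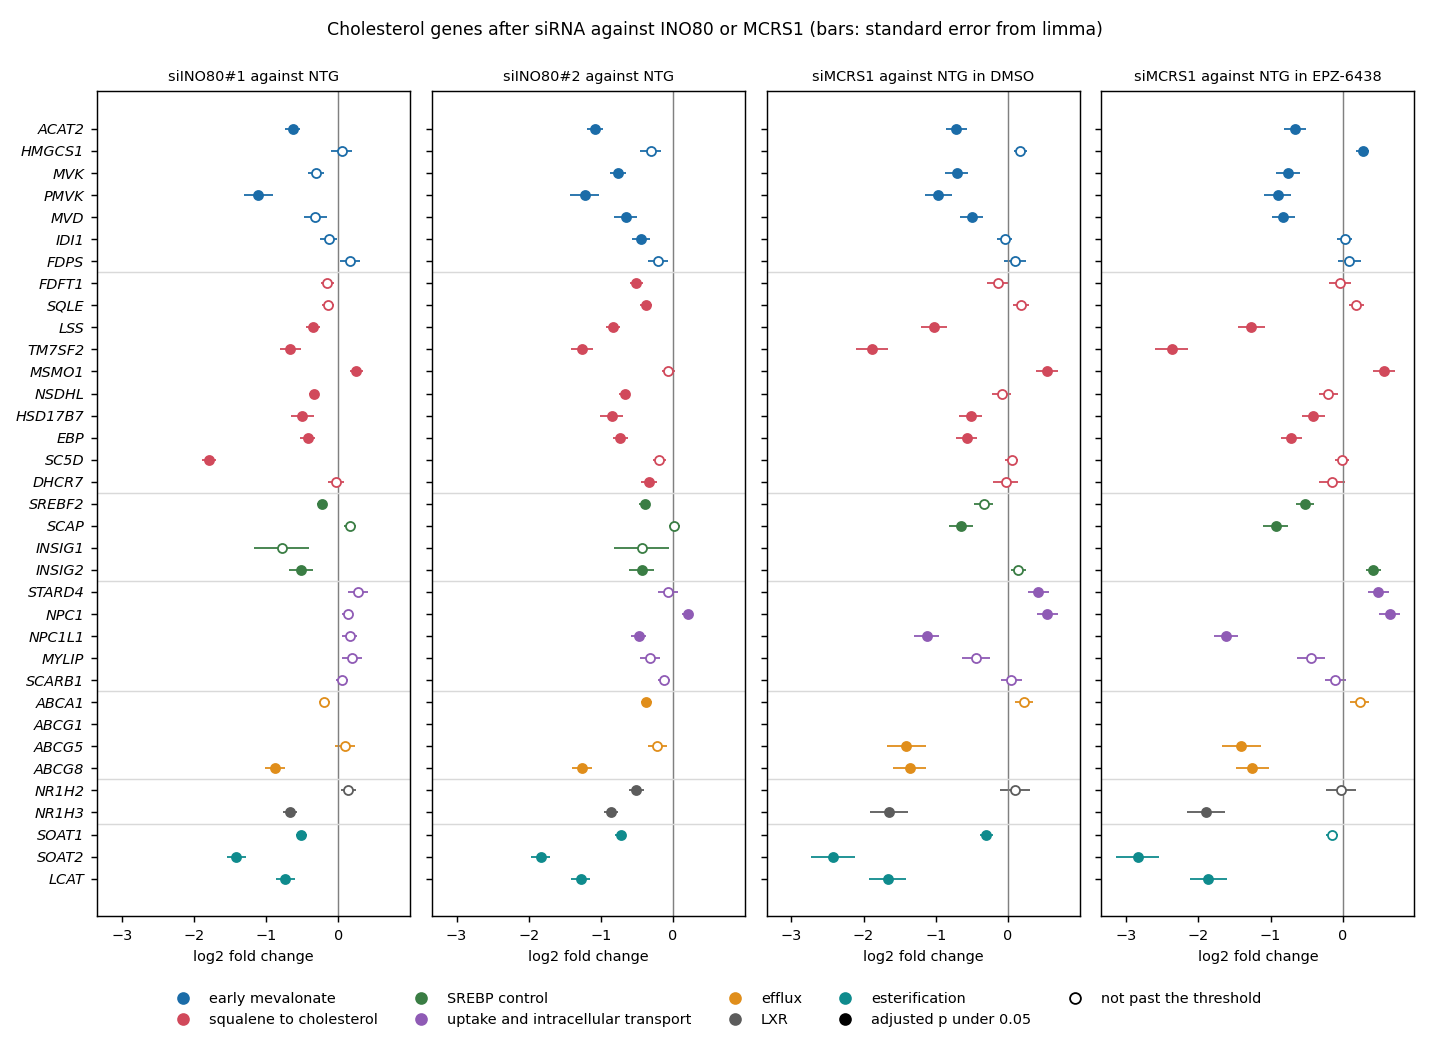
Log2 fold change (x axis, log2(value + 1) scale) of the 35 members (y axis, by role) in the 4 siRNA comparisons, with the standard error from limma as bars and filled points past an adjusted p of 0.05. SOAT2 and TM7SF2 lie farthest left with siMCRS1, SC5D stands apart with siINO80#1 alone, and ABCG1 has no point because its mean was under 10 normalized counts.

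The experiments share no library, so their members can be set side by side. Of the 33 members tested in both, 10 (30.3%) were lower in all 4 siRNA comparisons: ACAT2, PMVK, LSS, TM7SF2, HSD17B7, EBP, ABCG8, NR1H3, SOAT2 and LCAT. On GRCh38.p14 they lie apart from each other, with ACAT2 at chr6:159762045-159779112, PMVK at chr1:154924740-154942658, LSS at chr21:46188446-46228774, TM7SF2 at chr11:65111872-65116230 and HSD17B7 at chr1:162790702-162812823. The others are EBP at chrX:48521808-48528716, ABCG8 at chr2:43838971-43882988, NR1H3 at chr11:47248300-47269033, SOAT2 at chr12:53103486-53124535 and LCAT at chr16:67939750-67944120. Among all 13534 genes tested in both, 1541 (11.4%) were lower in all 4. Because the members were chosen with earlier results of these data known, their higher share is not independent support. No member was higher in all 4, where 1547 genes (11.4%) were. Across the 33 members, Pearson's r between the mean effect of the INO80 siRNAs and that of siMCRS1 was 0.70 in DMSO and 0.65 in EPZ-6438, beside 0.66 and 0.61 across all genes tested in both. These values are across genes, which are not independent replicates, and all genes of a comparison share its libraries. The effects had the same sign for 24 members (72.7%) in DMSO and 26 (78.8%) in EPZ-6438, beside 73.5% and 70.6% of all genes.

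**Figure D2:**
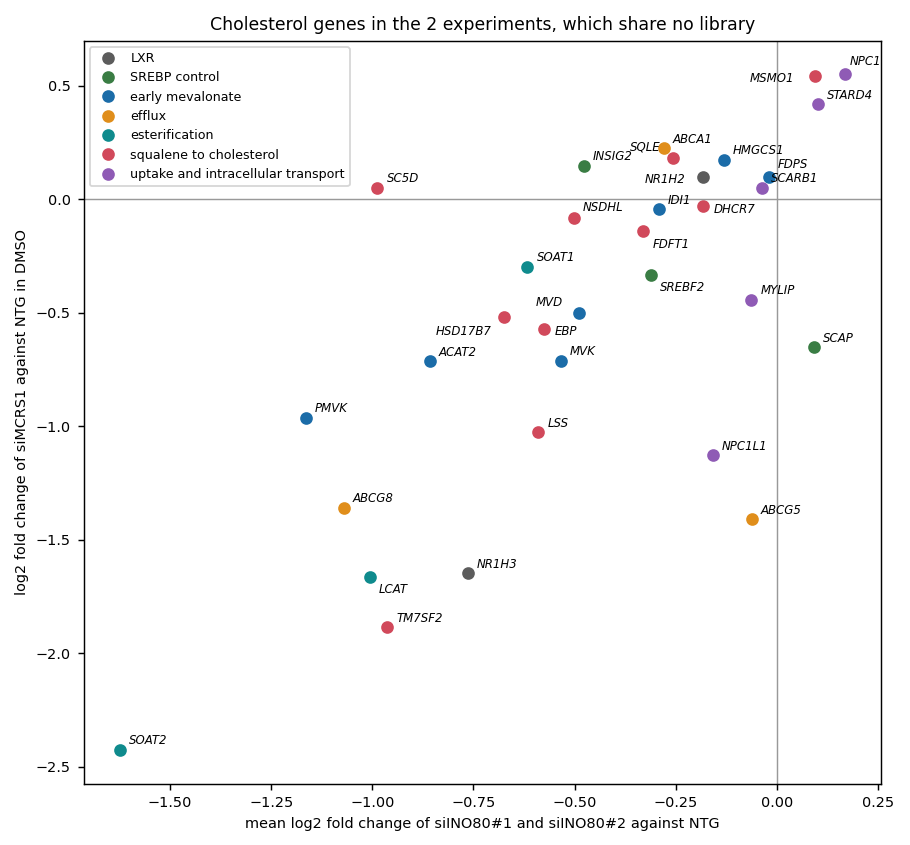
Mean log2 fold change of siINO80#1 and siINO80#2 (x axis) against the log2 fold change of siMCRS1 in DMSO (y axis) for the 33 members tested in both experiments, coloured by role, without error bars. SOAT2 is lowest on both axes, while ABCG5 and NPC1L1 are low with siMCRS1 and near 0 on the x axis. For NPC1L1 that x value averages 0.16 with siINO80#1 and -0.48 with siINO80#2, which passed the threshold. SC5D is low on the x axis through siINO80#1 and near 0 with siMCRS1.

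The promoters of members that moved together were read for a few motifs on both strands. RefSeq promoters on GRCh38.p14, 250 bases before to 50 bases after the start site, were matched for 28 of 35 members. The CCAAT box, which NF-Y binds beside SREBP at sterol genes, was in 18 of these (64.3%) and in 35.7% of all 27305 promoters. The GC box GGGCGG, which binds SP1, was in 23 (82.1%) against 44.6%. The 27305 promoters include those of genes not tested here, and no share among tested genes was computed. The sterol regulatory element TCACNCCAC was in 1 member, SREBF2 itself, against 1.15% of all promoters, and the YY1 motif AANATGGCG was in EBP and SREBF2 (7.14%) against 3.37%. YY1 is a DNA-binding subunit of INO80-C. Of the members lower in all 4 siRNA comparisons, ACAT2, SOAT2 and LCAT had no promoter here. The GC box was in 5 of the 7 others and in 3 of 3 members higher with siMCRS1. Members lower in all 4 siRNA comparisons and members higher with siMCRS1 both held the CCAAT box, 4 of the 7 with a promoter and 2 of 3. The windows below, 10 bases on each side of the capital letters, show that box in the promoters of both sets, 5′ to 3′ on the strand that reads CCAAT. A match is a description of these letters and no match says only that they are not in this window.
The promoters of members that fell in all 4 comparisons read as follows.
LSS: gcccacgcaaCCAATcagagcgccg
TM7SF2: agcacaccagCCAATcggcgctcgg
HSD17B7: gctgatccctCCAATctcagtccgc
EBP: acggagcgagCCAATggtgaagcga
The promoters of members that rose with siMCRS1 on the deposited scale, though not after rescaling, read as follows.
MSMO1: ctctcgcaggCCAATaacgacagga
STARD4: cccgcgccagCCAATccgaacaagc
The sterol regulatory element of SREBF2, shown because SREBF2 encodes the factor that binds such elements, reads as follows.
SREBF2: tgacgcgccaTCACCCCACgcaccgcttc
On GRCh38.p14 these windows lie at chr21:46228910-46228934 (LSS, plus strand), chr11:65111788-65111812 (TM7SF2, minus strand), chr1:162790640-162790664 (HSD17B7, minus strand), chrX:48521768-48521792 (EBP, minus strand), chr4:165327625-165327649 (MSMO1, plus strand), chr5:111512651-111512675 (STARD4, minus strand) and chr22:41832962-41832990 (SREBF2, plus strand). Each lies upstream of the start site of its gene, with the centre of the motif at -148, -72, -50, -28, -32, -128 and -129 bases from it in the same order.

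In the early mevalonate steps, ACAT2 and PMVK fell with both INO80 siRNAs, and MVK, MVD and IDI1 fell with siINO80#2. Both comparisons use the same NTG libraries. ACAT2, the cytosolic thiolase that joins acetyl-CoA units at the start of the pathway, had 7795, 7332 and 8155 normalized counts in the NTG libraries, 5558, 4400.1 and 5103 with siINO80#1, and 3788, 4071 and 3179 with siINO80#2, in the order of the letters A, B and C. The 3 groups did not overlap, and siINO80#2 was lowest. Its log2 fold changes were -0.63 (SE 0.11) with siINO80#1 and -1.08 (SE 0.11) with siINO80#2, with adjusted p-values of 9.2e-04 and 1.4e-05 from limma. ACAT2 overlaps SOD2 and TCP1 on the opposite strand, and the sources do not state whether counting used the strand. PMVK, which phosphorylates phosphomevalonate, had 264, 266 and 289.9 normalized counts in the NTG libraries, 116, 139 and 126 with siINO80#1, and 126, 154 and 81.2 with siINO80#2. NTG lay above all libraries of both siRNAs, and the siINO80 groups overlapped each other. The PMVK log2 fold changes were -1.10 (SE 0.20) with siINO80#1 and -1.22 (SE 0.20) with siINO80#2, with adjusted p-values of 0.0013 and 3.9e-04 from limma. For MVK and MVD, the kinase and the decarboxylase on either side of PMVK, every library of both siRNAs was also below NTG. MVK had log2 fold changes of -0.30 (SE 0.11) with siINO80#1 and -0.76 (SE 0.11) with siINO80#2, with adjusted p-values of 0.053 and 2.2e-04 from limma, and MVD -0.32 (SE 0.16) with siINO80#1 and -0.66 (SE 0.16) with siINO80#2, with adjusted p-values of 0.13 and 0.0050 from limma, so only siINO80#2 passed the threshold. IDI1, the isopentenyl pyrophosphate isomerase, gave -0.13 (SE 0.12) with siINO80#1 and -0.45 (SE 0.12) with siINO80#2, with adjusted p-values of 0.42 and 0.010 from limma. HMGCS1, the synthase before mevalonate, ranged from 10473 to 10721 normalized counts with NTG and from 6481 to 12011 with the siRNAs. It was not past the threshold with either (log2 fold change 0.05, 95% confidence interval -0.27 to 0.37, and -0.31, -0.64 to 0.01), and its lowest value was siINO80#2 library C. FDPS, which makes farnesyl pyrophosphate and has 8 annotated pseudogenes in the table that could share its reads, passed the threshold in none of the 4 siRNA comparisons.

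With siMCRS1, ACAT2, MVK, PMVK and MVD fell in both treatments, and HMGCS1 rose in EPZ-6438. ACAT2 had 10500.0 and 8259.8 normalized counts with NTG and 6402, 5975 and 4774 with siMCRS1 in DMSO, and 11562, 10972 and 9626 with NTG and 7135 and 6402 with siMCRS1 in EPZ-6438. MVK had 1546 and 1186 normalized counts with NTG and 948, 850.3 and 700.4 with siMCRS1 in DMSO, and 1632, 1916 and 1518 with NTG and 1066 and 920.4 with siMCRS1 in EPZ-6438. PMVK had 450.0 and 368 normalized counts with NTG and 231, 181 and 216 with siMCRS1 in DMSO, and 525, 396 and 378 with NTG and 244 and 214 with siMCRS1 in EPZ-6438. In all 3 genes the siMCRS1 libraries lay below the NTG libraries of their own treatment with no overlap. The log2 fold changes of ACAT2 were -0.71 (SE 0.15) in DMSO and -0.66 (SE 0.15) in EPZ-6438, with adjusted p-values of 0.0026 and 0.0033 from limma. Those of MVK were -0.71 (SE 0.16) in DMSO and -0.76 (SE 0.16) in EPZ-6438, with adjusted p-values of 0.0048 and 0.0027 from limma, and those of PMVK were -0.96 (SE 0.18) in DMSO and -0.90 (SE 0.18) in EPZ-6438, with adjusted p-values of 0.0016 and 0.0019 from limma. MVK overlaps MMAB on the opposite strand. MVD had 3027 and 2291 normalized counts with NTG and 2170.1, 1772 and 1673 with siMCRS1 in DMSO, and 3314, 3977 and 3421 with NTG and 2225 and 1814 with siMCRS1 in EPZ-6438, again without overlap. Its log2 fold changes were -0.50 (SE 0.16) in DMSO and -0.82 (SE 0.16) in EPZ-6438, with adjusted p-values of 0.023 and 0.0013 from limma. HMGCS1 had 12347 and 12129.7 normalized counts with NTG and 13777, 13991 and 13613 with siMCRS1 in DMSO, and 13546, 12739 and 14587 with NTG and 17014 and 15956 with siMCRS1 in EPZ-6438, where the siMCRS1 libraries were above NTG in both treatments. The HMGCS1 log2 fold changes were 0.17 (SE 0.09) in DMSO and 0.28 (SE 0.09) in EPZ-6438, with adjusted p-values of 0.14 and 0.025 from limma, so the threshold was passed in EPZ-6438 alone. Its difference between the treatments was 0.10 (SE 0.13, adjusted p = 1 from limma). After quantile normalization the HMGCS1 value in EPZ-6438 turned to -0.17 and was not past the threshold, and its call was lost in 7 of 20 alternatives. IDI1 and FDPS did not pass the threshold with siMCRS1.

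From squalene synthesis to cholesterol, LSS, TM7SF2, NSDHL, HSD17B7 and EBP fell with both INO80 siRNAs. FDFT1, SQLE and DHCR7 fell with siINO80#2, and SC5D fell with siINO80#1. LSS, the lanosterol synthase, had 5198, 5429 and 6390.0 normalized counts in the NTG libraries, 4445, 4104 and 4771 with siINO80#1, and 3344, 3377 and 2845 with siINO80#2. TM7SF2, a sterol reductase acting after lanosterol, had 1099, 1109 and 1574 normalized counts in the NTG libraries, 717, 723 and 934 with siINO80#1, and 485, 564 and 504 with siINO80#2. NSDHL, a dehydrogenase that helps strip methyl groups from lanosterol, had 1406, 1346 and 1468 normalized counts in the NTG libraries, 1124, 1052 and 1175 with siINO80#1, and 931, 872 and 846 with siINO80#2. In these 3 genes the groups did not overlap, with NTG highest and siINO80#2 lowest. The log2 fold changes were -0.35 (SE 0.10) with siINO80#1 and -0.83 (SE 0.10) with siINO80#2, with adjusted p-values of 0.017 and 5.0e-05 from limma for LSS. TM7SF2 gave -0.66 (SE 0.15) with siINO80#1 and -1.26 (SE 0.15) with siINO80#2, with adjusted p-values of 0.0048 and 4.3e-05 from limma, and it overlaps VPS51 on the same strand. NSDHL gave -0.33 (SE 0.07) with siINO80#1 and -0.67 (SE 0.07) with siINO80#2, with adjusted p-values of 0.0040 and 2.3e-05 from limma. HSD17B7, a reductase of the same demethylation, had 877, 724 and 925 normalized counts in the NTG libraries, 670.1, 514 and 603 with siINO80#1, and 488, 561 and 366 with siINO80#2, with every siRNA library below NTG. EBP, a sterol isomerase, had 1719.8, 1763 and 2058 normalized counts in the NTG libraries, 1271, 1306 and 1558 with siINO80#1, and 1125, 1222 and 994 with siINO80#2, and its 3 groups did not overlap. HSD17B7 gave -0.50 (SE 0.16) with siINO80#1 and -0.85 (SE 0.16) with siINO80#2, with adjusted p-values of 0.028 and 0.0011 from limma. Its call with siINO80#1 was lost in 5 of 20 alternatives. Among these were the fits without NTG replicate A or C and without siINO80#1 replicate B or C, so this call is fragile. The table holds 2 HSD17B7 pseudogenes that could share its reads. EBP gave -0.42 (SE 0.11) with siINO80#1 and -0.73 (SE 0.11) with siINO80#2, with adjusted p-values of 0.0093 and 2.1e-04 from limma.

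SC5D, the sterol desaturase close to the end of the pathway, was the member on which the INO80 siRNAs differed most. It had 3735, 3857 and 4238 normalized counts in the NTG libraries, 1285, 1031 and 1119 with siINO80#1, and 3307, 3279 and 3805 with siINO80#2. The siINO80#1 libraries were far below the other groups, while siINO80#2 overlapped NTG. SC5D kept 29.0% of its NTG mean with siINO80#1 and 87.8% with siINO80#2. The log2 fold changes were -1.79 (SE 0.10) with siINO80#1 and -0.19 (SE 0.10) with siINO80#2, with adjusted p-values of 8.5e-07 and 0.12 from limma. MSMO1, the methyl oxidase acting on lanosterol-derived sterols, had 6395, 6061 and 6553 normalized counts in the NTG libraries, 8004, 6655 and 8074 with siINO80#1, and 6178, 6461 and 5541 with siINO80#2. All siINO80#1 libraries were above NTG and siINO80#2 overlapped it, with log2 fold changes of 0.25 (SE 0.09) with siINO80#1 and -0.07 (SE 0.09) with siINO80#2, with adjusted p-values of 0.047 and 0.56 from limma. The MSMO1 call with siINO80#1 was lost in 11 of 20 alternatives, both rescalings included, and in the fit with the letter as a replicate block its value was 0.25 with an adjusted p of 0.052 from limma. FDFT1, the squalene synthase, gave -0.15 (SE 0.09) with siINO80#1 and -0.51 (SE 0.09) with siINO80#2, with adjusted p-values of 0.23 and 9.0e-04 from limma, and SQLE, the squalene epoxidase, gave -0.14 (SE 0.08) with siINO80#1 and -0.37 (SE 0.08) with siINO80#2, with adjusted p-values of 0.2 and 0.0033 from limma. DHCR7, a reductase of the last step, gave -0.03 (SE 0.11) with siINO80#1 and -0.33 (SE 0.11) with siINO80#2, with adjusted p-values of 0.86 and 0.028 from limma, and the call with siINO80#2 was lost in 5 of 20 alternatives. In all, 6 of the 10 members in this role fell and 1 rose with siINO80#1, and 8 fell with siINO80#2, where 20.8% and 20.7% of all genes fell and rose with siINO80#1 and 28.4% fell with siINO80#2.

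**Figure D3:**
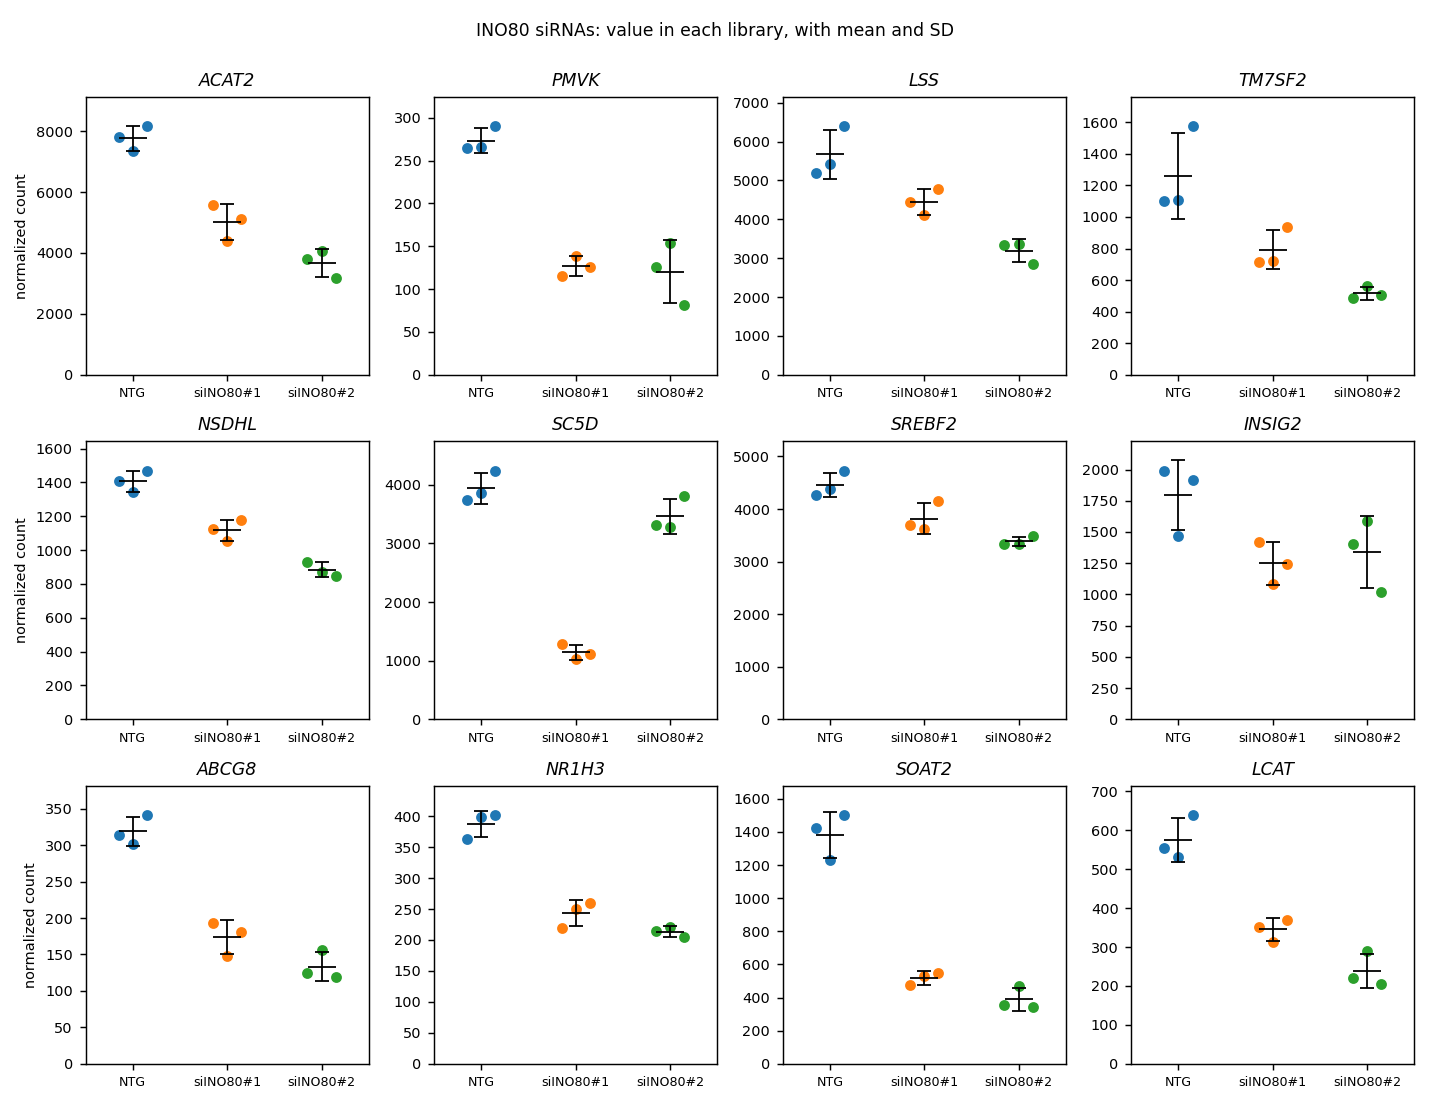
Normalized count (y axis, from 0) of 12 members in each library of NTG, siINO80#1 and siINO80#2 (x axis), with 3 points per group, the mean as a horizontal mark and the SD as bars. LSS, TM7SF2, NSDHL and SOAT2 fall in steps from NTG to siINO80#1 to siINO80#2, whereas SC5D is at 1285, 1031 and 1119 with siINO80#1 and near NTG with siINO80#2.

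With siMCRS1, LSS, TM7SF2, HSD17B7 and EBP fell in both treatments and MSMO1 rose in both, while the other 5 members of the role did not pass the threshold. Of all genes, 24.6% fell and 23.1% rose in DMSO, and 26.9% fell and 26.8% rose in EPZ-6438. TM7SF2 had 1328 and 985 normalized counts with NTG and 381, 303 and 256 with siMCRS1 in DMSO, and 1533, 2293 and 1690.4 with NTG and 409 and 299 with siMCRS1 in EPZ-6438. The siMCRS1 libraries did not overlap NTG, and their mean was 27.1% of NTG in DMSO and 19.3% in EPZ-6438. Its log2 fold changes were -1.88 (SE 0.23) in DMSO and -2.37 (SE 0.23) in EPZ-6438, with adjusted p-values of 1.1e-04 and 1.9e-05 from limma. LSS had 5274 and 4397 normalized counts with NTG and 2772, 2051 and 2319 with siMCRS1 in DMSO, and 5694, 6478 and 6104 with NTG and 3164 and 2021 with siMCRS1 in EPZ-6438, without overlap. The LSS log2 fold changes were -1.03 (SE 0.18) in DMSO and -1.27 (SE 0.18) in EPZ-6438, with adjusted p-values of 0.0011 and 2.2e-04 from limma. HSD17B7 had 1184 and 878 normalized counts with NTG and 788, 738 and 620.2 with siMCRS1 in DMSO, and 1254, 1179 and 1085 with NTG and 974 and 795 with siMCRS1 in EPZ-6438. EBP had 1988 and 1774 normalized counts with NTG and 1486, 1291 and 1048 with siMCRS1 in DMSO, and 2101, 2249 and 1992 with NTG and 1418 and 1169 with siMCRS1 in EPZ-6438. Neither gene had a siMCRS1 library within the range of its NTG libraries. HSD17B7 gave -0.52 (SE 0.16) in DMSO and -0.41 (SE 0.16) in EPZ-6438, with adjusted p-values of 0.020 and 0.048 from limma. Its call in EPZ-6438 was lost in 7 of 20 alternatives. It was lost whichever library of EPZ-6438 with NTG was left out, so this call is fragile too. EBP gave -0.57 (SE 0.15) in DMSO and -0.71 (SE 0.15) in EPZ-6438, with adjusted p-values of 0.0087 and 0.0021 from limma. MSMO1 moved the other way, with 9656 and 7330.3 normalized counts with NTG and 13053, 13816 and 10161 with siMCRS1 in DMSO, and 10004, 9519.6 and 8582 with NTG and 14386 and 13463 with siMCRS1 in EPZ-6438. Its siMCRS1 libraries were above NTG in both treatments, with log2 fold changes of 0.54 (SE 0.15) in DMSO and 0.57 (SE 0.15) in EPZ-6438, with adjusted p-values of 0.013 and 0.0085 from limma. Under equal totals or quantile normalization MSMO1 no longer passed the threshold in either treatment. SC5D, which fell with siINO80#1, had log2 fold changes of 0.05 (95% confidence interval -0.16 to 0.26) in DMSO and -0.01 (-0.22 to 0.21) in EPZ-6438. NSDHL, which fell with both INO80 siRNAs, gave -0.08 (-0.38 to 0.21) and -0.20 (-0.49 to 0.09).

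Among the genes that control SREBP, SREBF2 and INSIG2 fell with both INO80 siRNAs. SREBF2, which encodes SREBP-2, had 4275, 4376 and 4725 normalized counts in the NTG libraries, 3690.1, 3611 and 4158 with siINO80#1, and 3333, 3344 and 3484 with siINO80#2. Its 3 groups did not overlap. The log2 fold changes were -0.22 (SE 0.07) with siINO80#1 and -0.40 (SE 0.07) with siINO80#2, with adjusted p-values of 0.030 and 9.4e-04 from limma, and the call with siINO80#1 was lost in 6 of 20 alternatives. INSIG2, an anchor that retains SCAP in the endoplasmic reticulum, had 1989, 1471 and 1917 normalized counts in the NTG libraries, 1420.0, 1081 and 1242 with siINO80#1, and 1407, 1585 and 1019 with siINO80#2. The siINO80#1 libraries were below NTG, and siINO80#2 library B lay within the range of NTG. INSIG2 gave -0.52 (SE 0.17) with siINO80#1 and -0.43 (SE 0.17) with siINO80#2, with adjusted p-values of 0.030 and 0.050 from limma, and the calls were lost in 5 and 12 of 20 alternatives. SCAP, the sterol sensor that escorts SREBP-2, was at 1647 to 2108 normalized counts over all 9 libraries and did not pass the threshold. INSIG1, a classic SREBP-2 target, was at only 4.77 to 20.2 normalized counts in these libraries and did not pass it either.

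With siMCRS1, SCAP fell in both treatments, SREBF2 fell in EPZ-6438 and INSIG2 rose in EPZ-6438. SCAP had 3089.6 and 2291 normalized counts with NTG and 1945, 1685 and 1484 with siMCRS1 in DMSO, and 2878, 3256 and 2493 with NTG and 1678 and 1342 with siMCRS1 in EPZ-6438, without overlap. The SCAP log2 fold changes were -0.65 (SE 0.17) in DMSO and -0.93 (SE 0.17) in EPZ-6438, with adjusted p-values of 0.0094 and 0.0010 from limma. SREBF2 had 5668 and 4626 normalized counts with NTG and 4351, 4256 and 3611 with siMCRS1 in DMSO, and 6031, 7305 and 5931 with NTG and 4529.6 and 4372 with siMCRS1 in EPZ-6438. Every siMCRS1 library was below NTG in both treatments, with log2 fold changes of -0.34 (SE 0.13) in DMSO and -0.52 (SE 0.13) in EPZ-6438, with adjusted p-values of 0.054 and 0.0061 from limma. INSIG2, which fell with the INO80 siRNAs, had 2435 and 2428 normalized counts with NTG and 2755, 2817 and 2512 with siMCRS1 in DMSO, and 2245, 2036 and 2087 with NTG and 2649 and 3066 with siMCRS1 in EPZ-6438. Its siMCRS1 libraries were above NTG in both treatments. INSIG2 gave 0.15 (SE 0.10) in DMSO and 0.43 (SE 0.10) in EPZ-6438, with adjusted p-values of 0.25 and 0.0044 from limma, and the value in EPZ-6438 did not pass the threshold under equal totals or quantile normalization. INSIG1 was at 2.23 to 17.1 normalized counts and was not tested.

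In uptake and intracellular transport, no member fell with siINO80#1, NPC1L1 fell and NPC1 rose with siINO80#2, and siMCRS1 lowered NPC1L1 and raised STARD4 and NPC1 in both treatments. Of all genes, 20.8% fell with siINO80#1. NPC1L1, the transporter that takes up sterols from the gut and from bile, had 798 and 774 normalized counts with NTG and 386, 345 and 348 with siMCRS1 in DMSO, and 951, 1397 and 1372 with NTG and 439 and 359 with siMCRS1 in EPZ-6438. The siMCRS1 libraries were far below NTG in both treatments, at 45.7% of the NTG mean in DMSO and 32.2% in EPZ-6438. Its log2 fold changes were -1.13 (SE 0.17) in DMSO and -1.62 (SE 0.17) in EPZ-6438, with adjusted p-values of 4.3e-04 and 3.6e-05 from limma. With the INO80 siRNAs NPC1L1 gave 0.16 (SE 0.10) with siINO80#1 and -0.48 (SE 0.10) with siINO80#2, with adjusted p-values of 0.25 and 0.0027 from limma. NPC1, which carries cholesterol out of lysosomes, had 5179.6 and 5395 normalized counts with NTG and 6701, 8509.6 and 8107 with siMCRS1 in DMSO, and 3971, 4979 and 4031 with NTG and 5969.5 and 7644 with siMCRS1 in EPZ-6438. All its siMCRS1 libraries were above the NTG libraries of their treatment. NPC1 gave 0.55 (SE 0.15) in DMSO and 0.65 (SE 0.15) in EPZ-6438, with adjusted p-values of 0.0099 and 0.0033 from limma, and the value in DMSO missed the threshold under both rescalings. The call in EPZ-6438 was lost in 1 of 20 alternatives, the fit without EPZ-6438 siMCRS1 replicate B, so it depends on a single library. In the INO80 experiment NPC1 had 3915, 4058 and 3974 normalized counts in the NTG libraries, 4254, 4069 and 4776 with siINO80#1, and 4665, 4322 and 4808 with siINO80#2. Both siRNA groups lay above NTG, with log2 fold changes of 0.13 (SE 0.08) with siINO80#1 and 0.21 (SE 0.08) with siINO80#2, with adjusted p-values of 0.2 and 0.038 from limma, and the call with siINO80#2 was lost in 9 of 20 alternatives. STARD4, a soluble sterol carrier, had 1823 and 2144 normalized counts with NTG and 2429, 2846 and 2669.9 with siMCRS1 in DMSO, and 1819.7, 1675 and 2349.6 with NTG and 2861 and 2583 with siMCRS1 in EPZ-6438, with siMCRS1 above NTG in both treatments. STARD4 gave 0.42 (SE 0.15) in DMSO and 0.50 (SE 0.15) in EPZ-6438, with adjusted p-values of 0.036 and 0.015 from limma, and neither call was kept under the rescalings, that in DMSO being lost in 8 of 21 alternatives. SCARB1, the HDL receptor, passed the threshold in none of the 4 siRNA comparisons, with log2 fold changes of 0.05, -0.13, 0.05 and -0.10. MYLIP, an LXR-induced ubiquitin ligase for lipoprotein receptors, did not either, with 0.19, -0.32, -0.44 and -0.44. For MYLIP the 95% confidence intervals in the drug experiment, -0.87 to -0.02 and -0.87 to -0.02, lay below 0 before adjustment over all genes.

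Among the efflux genes, ABCG8 fell in all 4 siRNA comparisons, ABCG5 fell with siMCRS1, and ABCA1 fell with siINO80#2. ABCG5 and ABCG8 encode the partners of the transporter that secretes sterols into bile, and they overlap each other on opposite strands. ABCG8 had 315, 302 and 341 normalized counts in the NTG libraries, 193, 148 and 181 with siINO80#1, and 125, 156 and 119 with siINO80#2. Both siRNA groups were below NTG and overlapped each other. Its log2 fold changes were -0.88 (SE 0.14) with siINO80#1 and -1.26 (SE 0.14) with siINO80#2, with adjusted p-values of 6.1e-04 and 2.9e-05 from limma. In the drug experiment ABCG8 had 426 and 362 normalized counts with NTG and 184, 156 and 123 with siMCRS1 in DMSO, and 420.2, 443 and 442 with NTG and 236 and 140.2 with siMCRS1 in EPZ-6438, without overlap. These correspond to -1.36 (SE 0.23) in DMSO and -1.25 (SE 0.23) in EPZ-6438, with adjusted p-values of 7.4e-04 and 9.4e-04 from limma. ABCG5 had 476 and 469.5 normalized counts with NTG and 228, 149.8 and 163 with siMCRS1 in DMSO, and 460.0, 319.7 and 494 with NTG and 206 and 119 with siMCRS1 in EPZ-6438, and its siMCRS1 libraries were also below every NTG library of their treatment. ABCG5 gave -1.41 (SE 0.27) in DMSO and -1.41 (SE 0.27) in EPZ-6438, with adjusted p-values of 0.0016 and 0.0013 from limma. With the INO80 siRNAs ABCG5 gave 0.09 (95% confidence interval -0.21 to 0.39) and -0.22 (-0.51 to 0.08), which did not pass the threshold. ABCA1, which loads cholesterol onto apolipoprotein A-I, gave -0.19 (SE 0.07) with siINO80#1 and -0.37 (SE 0.07) with siINO80#2, with adjusted p-values of 0.051 and 0.0012 from limma. With siMCRS1 ABCA1 gave 0.22 (-0.05 to 0.50) in DMSO and 0.23 (-0.05 to 0.51) in EPZ-6438, also not past it.

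Of the LXR receptors, NR1H3 fell in all 4 siRNA comparisons and NR1H2 fell with siINO80#2. NR1H3, which encodes LXR alpha, had 362, 398 and 401 normalized counts in the NTG libraries, 219, 251 and 259.7 with siINO80#1, and 214, 221 and 204 with siINO80#2. All libraries of both siRNAs were below NTG, and the siRNA groups overlapped each other. Its log2 fold changes were -0.67 (SE 0.10) with siINO80#1 and -0.86 (SE 0.10) with siINO80#2, with adjusted p-values of 3.8e-04 and 3.8e-05 from limma. In the drug experiment NR1H3 had 626 and 499 normalized counts with NTG and 250.4, 166 and 135 with siMCRS1 in DMSO, and 631, 622 and 567 with NTG and 206 and 127 with siMCRS1 in EPZ-6438. No siMCRS1 library came near its NTG libraries, and the siMCRS1 mean was 32.7% of NTG in DMSO and 27.5% in EPZ-6438. NR1H3 gave -1.65 (SE 0.26) in DMSO and -1.90 (SE 0.26) in EPZ-6438, with adjusted p-values of 5.6e-04 and 1.7e-04 from limma. It overlaps ACP2 on the opposite strand. NR1H2, which encodes LXR beta and overlaps NAPSA on the opposite strand, gave 0.14 (SE 0.10) with siINO80#1 and -0.51 (SE 0.10) with siINO80#2, with adjusted p-values of 0.3 and 0.0015 from limma. With siMCRS1 NR1H2 gave 0.10 (95% confidence interval -0.36 to 0.55) and -0.02 (-0.48 to 0.44).

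Esterification held SOAT2, which had the lowest log2 fold change of all members tested with siINO80#2 and with siMCRS1 in both treatments, while SC5D was lower with siINO80#1. SOAT2, the sterol acyltransferase of hepatocytes and enterocytes, which is also known as ACAT2 and is a different gene from the thiolase above, had 1421, 1228 and 1499.6 normalized counts in the NTG libraries, 473, 532 and 548 with siINO80#1, and 354, 471 and 342 with siINO80#2. Its 3 groups did not overlap. The log2 fold changes were -1.41 (SE 0.13) with siINO80#1 and -1.84 (SE 0.13) with siINO80#2, with adjusted p-values of 1.6e-05 and 1.4e-06 from limma. In the drug experiment SOAT2 had 1808 and 1116 normalized counts with NTG and 396, 241 and 192 with siMCRS1 in DMSO, and 1411, 1559 and 1201 with NTG and 235 and 156 with siMCRS1 in EPZ-6438. The siMCRS1 mean was 18.9% of NTG in DMSO and 14.1% in EPZ-6438, with no overlap. SOAT2 gave -2.42 (SE 0.30) in DMSO and -2.84 (SE 0.30) in EPZ-6438, with adjusted p-values of 1.4e-04 and 3.6e-05 from limma. LCAT, the acyltransferase that esterifies cholesterol on lipoproteins in plasma, had 555, 532 and 638 normalized counts in the NTG libraries, 352, 313 and 371 with siINO80#1, and 219.9, 289 and 206 with siINO80#2. These groups did not overlap either. LCAT gave -0.73 (SE 0.13) with siINO80#1 and -1.28 (SE 0.13) with siINO80#2, with adjusted p-values of 0.0014 and 2.0e-05 from limma. In the drug experiment LCAT had 789.9 and 651 normalized counts with NTG and 315, 207 and 176 with siMCRS1 in DMSO, and 796, 658 and 697 with NTG and 250.4 and 153 with siMCRS1 in EPZ-6438, all siMCRS1 libraries being below NTG. LCAT gave -1.66 (SE 0.26) in DMSO and -1.86 (SE 0.26) in EPZ-6438, with adjusted p-values of 4.7e-04 and 1.7e-04 from limma, and it overlaps SLC12A4 on the same strand. SOAT1, the acyltransferase of most other tissues, had 2073, 2154 and 2060.2 normalized counts in the NTG libraries, 1540.4, 1441 and 1432 with siINO80#1, and 1388, 1272 and 1159 with siINO80#2. Its groups did not overlap, with -0.51 (SE 0.08) with siINO80#1 and -0.72 (SE 0.08) with siINO80#2, with adjusted p-values of 3.9e-04 and 2.0e-05 from limma. With siMCRS1 SOAT1 gave -0.30 (SE 0.08) in DMSO and -0.15 (SE 0.08) in EPZ-6438, with adjusted p-values of 0.014 and 0.16 from limma, so only the value in DMSO passed the threshold.

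**Figure D4:**
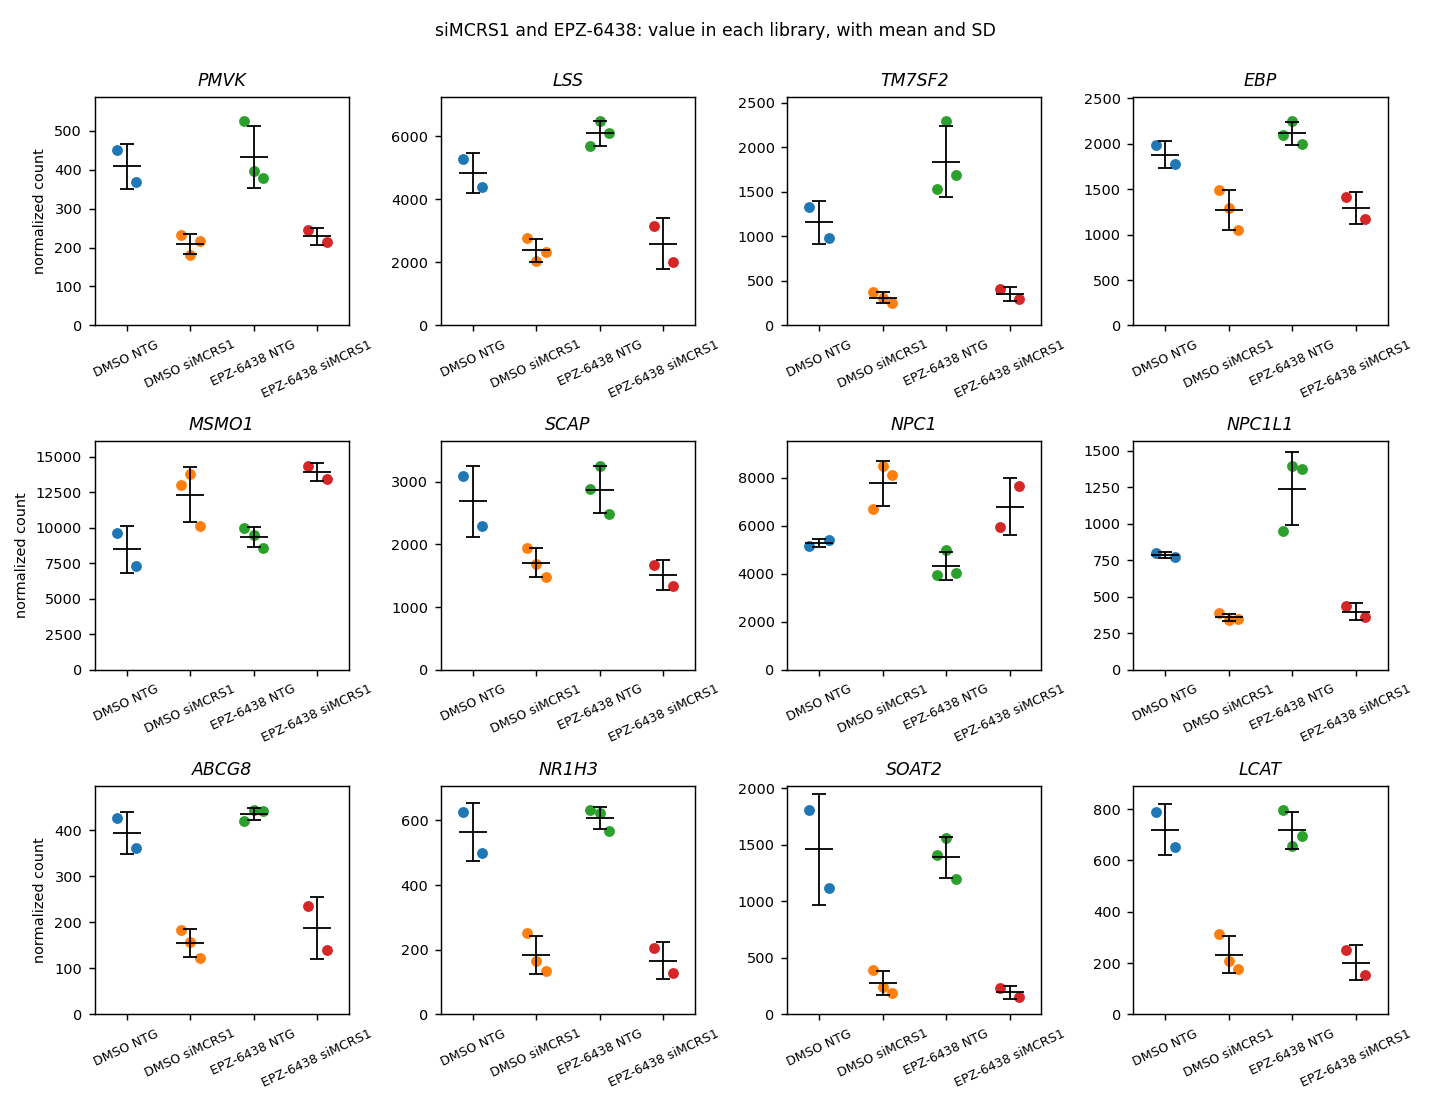
Normalized count (y axis, from 0) of 12 members in each library of the drug experiment (x axis: DMSO or EPZ-6438, with NTG or siMCRS1), with 2 or 3 points per group, the mean as a horizontal mark and the SD as bars. SOAT2, TM7SF2, NR1H3 and LCAT drop with siMCRS1 in both treatments, MSMO1 and NPC1 are higher with it, and SOAT2 in DMSO with NTG is spread over 1808 and 1116.

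The control group in DMSO has only 2 libraries, and they differ. Without DMSO NTG replicate 1, 11 members passed the threshold with siMCRS1 in DMSO in place of 19, and EBP, HSD17B7, MVD, MVK, SCAP, SOAT1, NPC1 and STARD4 were the ones lost. The counts of the other siRNA comparisons with NTG stayed within 1.5 times whichever library was left out.

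The INO80 siRNAs were compared with each other directly. With siINO80#2 against siINO80#1, 12 of 34 members were lower and 1 was higher, where 12.6% and 9.48% of all genes were. SC5D was the higher one, at 1.60 (SE 0.10, adjusted p = 8.4e-06 from limma). The lower ones were ACAT2, MVK, FDFT1, LSS, TM7SF2, MSMO1, NSDHL, NPC1L1, NR1H2, MYLIP, SOAT2 and LCAT, at log2 differences of -0.65 (NR1H2) to -0.32 (MSMO1). Among these, NR1H2 and NPC1L1 were the farthest apart. NR1H2 had 562, 531 and 556 normalized counts in the NTG libraries, 578, 606 and 634 with siINO80#1, and 405, 429 and 332 with siINO80#2. NPC1L1 had 857, 882 and 925 normalized counts in the NTG libraries, 955, 915 and 1113 with siINO80#1, and 584, 603 and 735 with siINO80#2. In both genes the siINO80#2 libraries lay below all others, whereas the siINO80#1 libraries lay within or above the range of NTG. The count of 13 depends on single libraries: it was 6 without siINO80#1 replicate A, 5 without siINO80#1 replicate C, 8 without siINO80#2 replicate A and 23 without siINO80#2 replicate B. Of its calls, SOAT2 was lost in 10, MSMO1 in 7 and MYLIP in 5 of 20 alternatives.

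EPZ-6438 moved no member past the threshold. With NTG, 0 of 33 members passed it in limma, where 0.321% of all genes were higher and 0.0629% lower with EPZ-6438 than with DMSO. At an unadjusted p under 0.05 there were 6 members higher and 1 lower, where 2443 of 14312 genes were under it. By edgeR none passed the adjusted threshold and 7 were higher and 1 lower at an unadjusted p under 0.05, where 2457 of all genes were, and by DESeq2, which called 721 of all genes, 1 member, NPC1L1, passed. NPC1L1 went from 798 and 774 normalized counts in DMSO to 951, 1397 and 1372 in EPZ-6438, a log2 difference of 0.64 (95% confidence interval 0.26 to 1.01, adjusted p = 0.12 from limma). TM7SF2 had 0.66 (0.17 to 1.16, adjusted p = 0.18). Both were picked out after their values were seen. With siMCRS1, 0 of 33 members passed in limma, edgeR or DESeq2, where 0.0838% of all genes were higher and 0.00699% lower. HMGCS1, named for its value, was the 1 member at an unadjusted p under 0.05 by each tool, where 1305 of all genes were by limma, higher in EPZ-6438 by 0.26 (SE 0.09, adjusted p = 0.41 from limma).

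The effect of siMCRS1 was also compared between the treatments, as the difference of its log2 fold changes in EPZ-6438 and DMSO. No member passed the threshold in limma, edgeR or DESeq2, and 0 of 33 were under an unadjusted p of 0.05 by each tool. Among all genes limma called 0% higher and 0% lower, with 336 of 14312 genes under an unadjusted p of 0.05, and DESeq2 called 5 genes. The intervals of these differences were wide. For SOAT2 the difference was -0.42 with a 95% confidence interval of -1.36 to 0.52, for TM7SF2 -0.49 (-1.19 to 0.22), for NPC1L1 -0.49 (-1.03 to 0.05) and for LCAT -0.20 (-1.01 to 0.60).

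Genes around the pathway were counted from lists of related genes, and the values named are the 3 with the largest log2 fold change past the threshold in a list. Of 12 tested genes of SREBP processing and sterol sensing, 7 rose and 1 fell with siINO80#1, 4 rose and 2 fell with siINO80#2, 6 rose and 2 fell with siMCRS1 in DMSO, and 7 rose and 2 fell in EPZ-6438. Of all genes, 20.7%, 26.6%, 23.1% and 26.8% rose and 20.8%, 28.4%, 24.6% and 26.9% fell in these comparisons in this order. Under both rescalings 4, 3, 4 and 5 of these rises and every fall were kept, and no gene was called the other way. As for the members, equal totals could hardly remove a fall, here or in the lists below. MBTPS1, the protease that first cleaves SREBP in the Golgi, led this list in every comparison, at log2 fold changes of 1.02, 1.27, 1.30 and 1.40 (adjusted p 3.9e-06, 4.8e-07, 1.2e-05 and 5.2e-06 from limma). Its mean went from 1321 normalized counts in NTG to 2681 and 3182 with the INO80 siRNAs, and from 2333 to 5753 with siMCRS1 in DMSO. Beside it were C12orf49 (0.89) and SREBF1 (0.53) with siINO80#1, C12orf49 (0.82) and ERLIN1 (-0.49) with siINO80#2, RNF145 (0.85) and C12orf49 (0.82) with siMCRS1 in DMSO and RNF145 (1.03) and C12orf49 (0.88) in EPZ-6438. C12orf49 is the former symbol of SPRING1, a factor needed for SREBP processing, SREBF1 encodes SREBP-1, and RNF145 is a sterol-regulated ubiquitin ligase.

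In the isoprenoid branch, which makes ubiquinone, dolichol and prenyl groups from the intermediates of the pathway, 4 of 14 genes rose and 3 fell with siINO80#1, 6 rose and 4 fell with siINO80#2, 6 rose and 1 fell with siMCRS1 in DMSO, and 7 rose and 2 fell in EPZ-6438, of which 3, 3, 3 and 4 rises and every fall were kept under both rescalings. Beside the shares of all genes just given, the falls with the INO80 siRNAs are near the background and those with siMCRS1 are below it. PDSS2, a subunit of the synthase for the ubiquinone tail, fell in every one, at -0.49, -1.09, -1.26 and -1.10 (adjusted p 0.0043, 1.3e-05, 3.3e-05 and 3.9e-05 from limma). RCE1 and ICMT, which process prenylated proteins, rose in every one, RCE1 at 0.85, 0.88, 1.04 and 0.97, and ICMT at 0.81, 0.61, 0.81 and 1.04. With siINO80#2 the third place was held by RABGGTA (0.79), a subunit of the Rab prenyltransferase. Among 10 tested genes of intracellular sterol movement, 1 rose and 3 fell with siINO80#1, 3 rose and 3 fell with siINO80#2, and 4 fell and none rose with siMCRS1 in either treatment, beside the same shares of all genes. Of these, the rise of OSBPL2 with siINO80#2 was the 1 call lost under the rescalings. TMEM97, a sterol-regulated partner of NPC1, fell by 0.74, 1.16, 0.69 and 0.72 on the log2 scale in the 4 comparisons. LIPA, the lysosomal acid lipase, fell by 0.72, 0.84, 0.82 and 0.76. GRAMD1A, which carries plasma membrane cholesterol to the endoplasmic reticulum, rose with both INO80 siRNAs (1.04 and 0.96), its relative GRAMD1C rose with siINO80#2 (0.95), and STARD5, a sterol-binding protein at 12.1 to 48.0 normalized counts as group means, fell with siMCRS1 (-1.62 and -1.53). SCP2, a sterol carrier protein, fell with siMCRS1, by 0.72 in DMSO and by 0.79 in EPZ-6438 on the log2 scale.

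Target genes of LXR outside the members were also read, and 3 are given here. LPCAT3, which remodels phospholipids, fell in every comparison (-0.41, -0.76, -1.24 and -1.35). SREBF1 rose with siINO80#1 (0.53) and fell with siMCRS1 in EPZ-6438 (-0.69), and SMPDL3A rose with siINO80#2 (0.48) and with siMCRS1 in DMSO (0.43), the last of which was lost under the rescalings. The list is given in part, so it is not counted or described as a whole.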

How the data were processed

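mRNA-seq libraries of HepG2 cells were analysed in 2 experiments of 9 and 10 libraries, and groups were taken from the sample labels. For each experiment the authors deposited a table of signal values that are normalized counts, with a single scale factor for every library. The submitters' processing notes name kallisto, DESeq2 and GRCh38, without versions, and whether counting used the strand is not stated. Values were whole multiples of 1 step per library (100% of values, tolerance 1e-06), so whole reads were recovered for count tests. Depth was 17093574 to 47397233 reads. The floors cover counting error only. The confidence intervals come from the limma fit and, like the p-values, measure the spread between these libraries.

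The test was limma 3.58.1 (R 4.3.3), run on log2(value + 1) with eBayes and its trend option. All groups of an experiment entered 1 fit, genes whose mean was under 10 normalized counts were left out, and p-values were adjusted by Benjamini-Hochberg over every gene kept. A fold change on this scale understates the change of low genes. Scripts were tested on simulated data. By deviations from group means, the letters A, B and C paired NTG with siINO80#1 (correlations of 0.25, 0.26 and 0.14). The alternatives were pseudocounts of 0.1 and 5, no filter or a mean of at least 50, rescaling to equal totals and quantile normalization. Others were eBayes without a trend, only the groups compared, a replicate block, and edgeR 4.0.16 and DESeq2 1.42.0 on the recovered reads. Each library of the experiment was also left out in turn, including libraries outside the comparison. The counts of alternatives given for a call include these.

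The members and lists were chosen with earlier results of these data known. Values in every library were printed for members called in the same direction with both INO80 siRNAs or with siMCRS1 in both treatments, called in opposite directions in any 2 comparisons, or called with EPZ-6438, and for related lists the 3 largest changes past the threshold. Promoters came from RefSeq on GRCh38.p14. Columns of the drug table carry numbers where the labels carry letters, except for EPZ-6438 siMCRS1, and were assigned to groups by name. Gene positions came from the same assembly, and overlaps from the GENCODE annotation lifted to GRCh37. Figures were drawn with matplotlib 3.10.9 in Python 3.11.15. One gene of the related lists is not reported here, so in its list that rule does not hold. The ChIP-seq data were not analysed here.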

Additional observations from a re-analysis of the deposited data

Results flagged for a closer look

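The flagged results are the members on which the INO80 siRNAs differed from each other in the direct test within the limma fit of the INO80 experiment. Of 34 members, 13 passed the threshold, as log2 values of siINO80#2 minus siINO80#1. SC5D was higher with siINO80#2, by 1.60. The other 12 were lower with it. In synthesis these were ACAT2 (-0.45), MVK (-0.46), FDFT1 (-0.36), LSS (-0.48), TM7SF2 (-0.60), MSMO1 (-0.32) and NSDHL (-0.34). In transport, LXR control and esterification they were NPC1L1 (-0.64), NR1H2 (-0.65), MYLIP (-0.51), SOAT2 (-0.42) and LCAT (-0.55). INO80 itself was lower with siINO80#2 than with siINO80#1 in every library, and its part in these differences was not tested. Groups of 2 or 3 libraries are too small for the check of single libraries that stand apart.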

How the results depend on the processing

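Over all alternatives tried, 1741 of the values of called members kept their direction and their call, 137 kept the direction and lost the call, and 1 reversed. Of the values of members not called, 3407 stayed so, 83 passed the threshold in the same direction, and 1 passed it in the other. The reversed values were those of siMCRS1 in EPZ-6438 after quantile normalization, HMGCS1 at -0.17 and IDI1 at -0.27, and the cause was not tested. The number of members past the threshold with siINO80#2 against siINO80#1 ran from 5 to 23 when libraries were left out one at a time. With siMCRS1 in DMSO it ran from 11 to 20. With EPZ-6438 against DMSO and NTG, DESeq2 gave 1 member, NPC1L1, and the column number as a replicate block gave 5, in a fit of 4 libraries with 1 residual degree of freedom that called 2609 of all genes. Libraries with the same letter or column number had deviations correlated over 0.1 in 5 of 9 and 6 of 7 pairs. Their means were 0.10 and 0.21, and unmatched pairs had a mean of -0.05 in either experiment. That is no separate baseline, because deviations within a group sum to 0, which ties the unmatched mean to the matched one. Unmatched pairs of the drug experiment also hold the lettered EPZ-6438 siMCRS1 columns, whose match to the numbers is not known. In the INO80 experiment every pair was over 0.1 for NTG with siINO80#1 alone. The 2 pairs of NTG with siMCRS1 in DMSO were at 0.30 and 0.29, too few to decide. DMSO NTG has 2 libraries, whose deviations mirror each other. Its pairs with siMCRS1 in DMSO, and its pairs with EPZ-6438 NTG, are therefore not separate evidence. With the letter as a replicate block, 15, 25 and 15 members passed with siINO80#1, siINO80#2 and siINO80#2 against siINO80#1, and with the column number as a block 25 members in place of 19 passed with siMCRS1 in DMSO, in a fit of 4 libraries that called 9113 of all genes in place of 6830. With siINO80#1 the block changed the call of MSMO1 and of no other member. A lone library of a group left after leaving one out was assumed to vary like the other groups. INSIG1 and ABCG1 have values within a few reads of the floor in some libraries, and the cause of these low values was not tested.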
